A study of Homo sapiens with 10 samples.

Results

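The 40 genes described here act in the endoplasmic reticulum (ER), the compartment in which a thyroid cell folds its secreted and membrane proteins, and in the unfolded protein response (UPR), which adjusts that compartment to its load. They were chosen by name, as ER chaperones, disulfide isomerases and oxidases, lectin chaperones, UPR sensors and transcription factors, components of ER-associated degradation (ERAD), translocon subunits and COPII coat subunits. All 40 were among the 28265 gene symbols counted, and all 40 were among the 21014 genes tested, which had at least 5 counts in at least 2 libraries. Transcripts were counted by bulk RNA-seq of cells sorted for NKX2-1 GFP from human thyroid organoids, with 10000 cells sorted per sample and 2 libraries at each of days 16, 23, 31, 38 and 45. All cells came from ESIBIe003-A-6, a human embryonic stem cell line with GFP in place of part of 1 *NKX2-1* allele and with lentiviral *NKX2-1* and *PAX8* transgenes under doxycycline control, and all had received activin A and then doxycycline before day 16.

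By the study's methods, day 16 cells had been kept in basal medium, day 23 and day 31 cells had received 8-br-cAMP, a cell-permeable cAMP analogue, day 38 cells had received human recombinant TSH with dexamethasone, a glucocorticoid, and day 45 cells had in addition received SB431542, an inhibitor of TGFβ receptor kinases. The labels name c-AMP for day 16 and leave dexamethasone out for day 45. They also name c-AMP for day 31, although the schedule of the study puts the change of medium shortly before that day. The text of the study starts SB431542 shortly before day 38 in 1 place and on day 38 in another. Day 38 cells may therefore already have received it, although their labels name TSH and DEX only. Each replicate pooled several wells of this 1 modified line, so the p-values measure the spread between cultures of that line. Time and medium changed together between the days, and their parts cannot be told apart here. The organoids kept on cAMP until days 38 and 45 were not analysed here. In bulk samples, fewer cells of a type and less RNA per cell also cannot be told apart.

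Thyroglobulin, encoded by *TG*, is a very large secreted glycoprotein with many disulfide bonds, and it is folded in the ER before it reaches the follicle lumen. The chaperone BiP, encoded by *HSPA5*, binds unfolded chains and also holds the UPR sensors in check. When unfolded chains build up, the sensor IRE1 (*ERN1*) splices *XBP1* mRNA, PERK (*EIF2AK3*) slows translation, and ATF6 (*ATF6*) is cut to release a transcription factor, and the factors so formed bind ER stress response elements in the promoters of chaperone and ERAD genes. Gene counts do not show *XBP1* splicing, PERK phosphorylation or ATF6 cleavage.

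Because the members include the known targets of ATF6 and XBP1, their promoters were searched for 3 fixed motifs on both strands. These were the ER stress response element (ERSE, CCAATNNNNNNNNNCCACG), ERSE-II (ATTGGNCCACG) and the core that ATF6 and XBP1 bind (TGACGTGG). RefSeq promoters on GRCh38.p14, from 250 bases before to 50 bases after the start of the gene, were matched for 36 of the 40 members, and no promoter was matched for *DERL1*, *DERL3*, *PDIA3* and *SEC24D*. ERSE was found in 7 of the 36 (19.4%), against 22 of all 27305 promoters (0.0806%). ERSE-II was found in 3 of the 36 (8.33%), against 15 of all promoters (0.0549%), and the core in 2 of the 36 (5.56%), against 217 of all promoters (0.795%). Of the 37 promoters with ERSE or ERSE-II in the whole table, 10 belonged to members. These elements are known from promoters of chaperone and ERAD genes, the kind of gene chosen here. The higher share among the members therefore follows from their choice and is given as a description only. The matches are printed in the direction of the gene, because they are the sequence feature that the members of several roles share. Capitals mark the bases that the motif fixes, and positions are counted from the start site that RefSeq gives, which can lie downstream of the gene start in GENCODE given elsewhere. For *HSP90B1*, *CANX* and *CRELD2* the GENCODE gene begins upstream of the stretch printed, so that the match lies within it.
HSPA5, ERSE, −66 to −48, chr9:125241386-125241414, minus strand: cttcaCCAATcggcggcctCCACGacggg
HSP90B1, ERSE, −194 to −176, chr12:103930211-103930239, plus strand: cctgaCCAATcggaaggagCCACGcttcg
HSP90B1, ERSE reversed, −89 to −71, chr12:103930316-103930344, plus strand: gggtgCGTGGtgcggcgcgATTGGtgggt
XBP1, ERSE, −52 to −34, chr22:28800598-28800626, minus strand: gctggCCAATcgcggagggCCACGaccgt
CALR, ERSE reversed, −225 to −207, chr19:12938379-12938407, plus strand: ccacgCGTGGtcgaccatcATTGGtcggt
CANX, ERSE, −151 to −133, chr5:179698773-179698801, plus strand: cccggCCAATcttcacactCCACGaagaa
ERO1B, ERSE reversed, −243 to −225, chr1:236282178-236282206, minus strand: gcccgCGTGGtcccgcctcATTGGccgcc
CRELD2, ERSE reversed, −80 to −62, chr22:49918549-49918577, plus strand: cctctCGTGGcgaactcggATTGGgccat
HERPUD1, ERSE-II, −117 to −107, chr16:56932020-56932040, plus strand: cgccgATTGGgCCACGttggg
HYOU1, ERSE-II reversed, −185 to −175, chr11:119057375-119057395, minus strand: cgtgaCGTGGtCCAATcccag
HYOU1, ERSE-II reversed, −79 to −69, chr11:119057269-119057289, minus strand: tgggaCGTGGtCCAATgagta
SDF2L1, ERSE-II reversed, −188 to −178, chr22:21642109-21642129, plus strand: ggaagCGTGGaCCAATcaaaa
*HSP90B1* and *HYOU1* each held 2 matches, and the upstream match of *HYOU1* overlaps its TGACGTGG core. A match describes the letters and is no proof of binding, and a promoter without one may hold a form of the element that these letters miss.

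The libraries held 7247268 to 10333933 counts, and 3 counts, taken as the smallest value a library can show, corresponded to 0.307 to 0.436 CPM (counts scaled to the total of the library and by edgeR's TMM factors). The 40 genes together took 0.459 to 0.545% of the counts in the 6 libraries of days 16, 23 and 31, and 0.791 to 0.857% in the 4 libraries of days 38 and 45. Their summed level was 4560 ± 92.6 CPM on day 16, 4952 ± 25.5 on day 23, 5044 ± 63.1 on day 31, 8652 ± 350 on day 38 and 8723 ± 369 on day 45 (SD, n = 2). The 4 late libraries therefore lay above the 6 early ones with no overlap. *TG* in the same libraries was at 11.2 ± 0.74 CPM, then 192 ± 20.2, 206 ± 8.23, 5211 ± 475 and 7744 ± 310 (SD, n = 2). The first step of *TG*, on day 23, was large as a ratio but went only from 11.2 to 192 CPM. It was accompanied by a small change in the summed ER level. The second step, on day 38, went from 206 to 5211 CPM and was accompanied by a large change in that level. The contrast was smaller by other measures. Without *HSPA5* and *HSP90B1* the sums were 3585 and 3489 CPM on day 16, 4097 and 4104 on day 23, 4113 and 4030 on day 31 and 6685 and 6271 on day 38. The median log2 CPM of the 40 genes was 6.17 and 6.07, 6.33 and 6.29, 6.35 and 6.43, and 6.78 and 6.73 on these days. As a ratio of CPM with no correction for length, the summed level per unit of *TG* went from 409 on day 16 to 25.9, 24.5, 1.66 and 1.13.

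**Figure D1:**
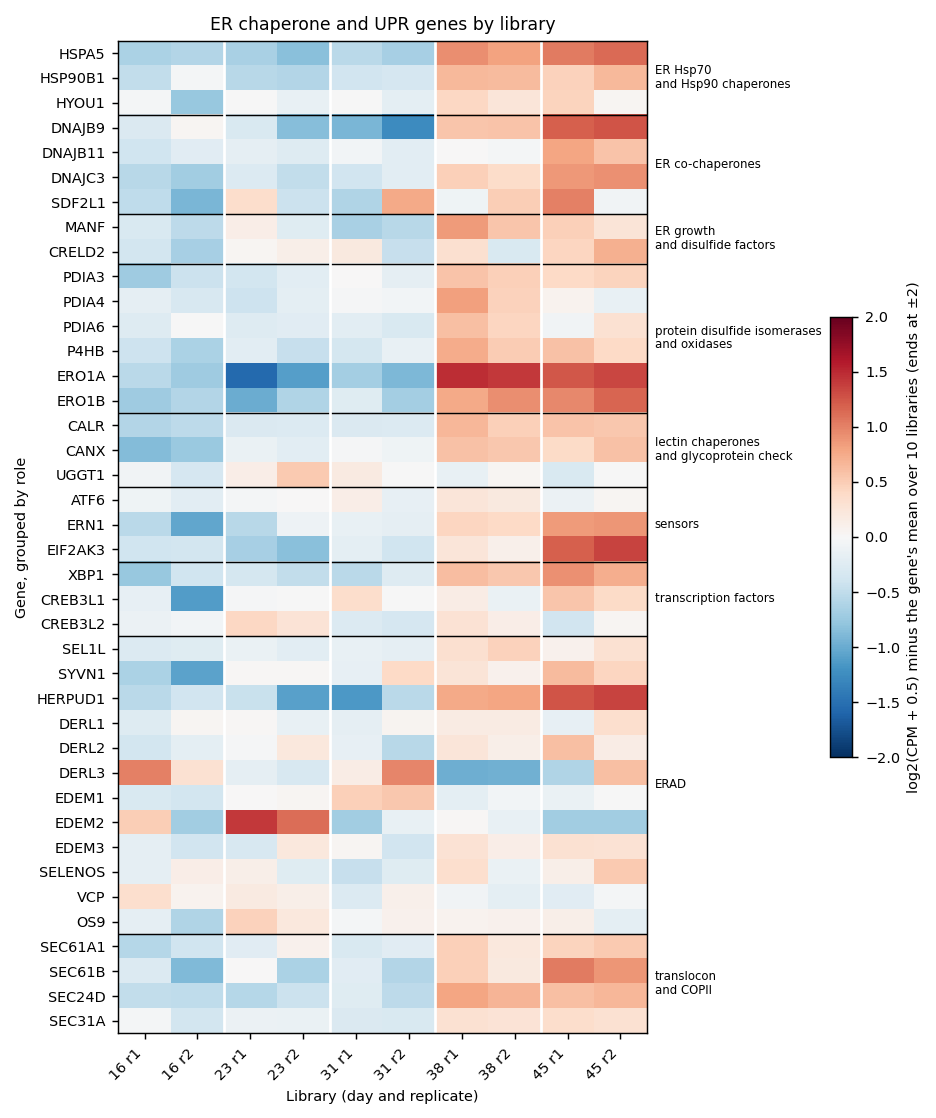
Level of each of the 40 genes in each of the 10 libraries, as log2(CPM + 0.5) minus the mean of the gene over all libraries, grouped by role. Most rows turn from blue to red between day 31 and day 38, while the rows of DERL3 and EDEM2 rest on very few counts.

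Over all 5 days, 31 of the 40 genes (77.5%) differed between days by edgeR's quasi-likelihood test at an adjusted p under 0.05, against 36.3% of all genes tested. The 9 that did not pass were *ATF6*, *CREB3L1*, *SDF2L1*, *CRELD2*, *DERL1*, *DERL3*, *EDEM2*, *SELENOS* and *VCP*. The highest mean was on day 45 for 19 genes, on day 38 for 14, on day 23 for 4, on day 16 for 2 and on day 31 for 1. Per base of merged exons of all annotated isoforms, *CALR* ranked first at both ends of the course. It was followed by *HSP90B1* and *HSPA5* on day 16 and by *HSPA5* and *HSP90B1* on day 45. This order depends on the annotation, since merged exons can be longer than the transcript made. They held 2802 bases for *CALR*, 13092 for *HSP90B1* and 6530, the whole gene, for *HSPA5*. By CPM without this correction *HSP90B1* was highest, with means of 723 on day 16 and 1266 on day 45. On the same per-length scale *SEC61B* went from rank 26 to rank 17, *EIF2AK3* from 34 to 25, *ERO1A* from 13 to 5 and *HERPUD1* from 21 to 13. In the other direction, *UGGT1* went from rank 22 to rank 30 and *VCP*, which passed no test, from 8 to 19.

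Between day 31 and day 38, 21 of the 40 genes rose and 1 fell (edgeR, adjusted p under 0.05), against 8.8% of all genes tested that rose and 6.23% that fell. The median log2 fold change of the 40 genes was 0.59, against 0.00 for all genes tested, and 35 of the 40 values were above 0. The genes that rose came from every role, with all 6 disulfide isomerases and oxidases, 3 of 4 translocon and COPII genes, 2 of 3 Hsp70 and Hsp90 chaperones, 2 of 4 co-chaperones and 2 of 12 ERAD genes among them. *TG* rose by 4.66 on the log2 scale in the same comparison (SE 0.12, edgeR adjusted p = 2.4e-25). Scaled by library size alone, without TMM factors, the median of all genes was −0.20 and that of the 40 genes 0.37, and 17 of them rose and 1 fell. Under that scaling, 33.3% of all calls were higher on day 38, against 58.5% with TMM factors.

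Other markers moved with this step. The summed level of 5 fibroblast markers (*COL1A1*, *COL1A2*, *COL3A1*, *DCN* and *PDGFRA*) was 1362 and 1619 CPM in the day 31 libraries and 4177 and 4414 in those of day 38, although the cells had been sorted for NKX2-1 GFP. *COL3A1* was the most abundant of them, 4 of the 5 rose between these days, of which *PDGFRA* lost its call without any 1 of the 4 libraries (0.90 to 1.18), and none was at 0 in all libraries. Fibrillar collagens are themselves secreted proteins that pass through the ER. The summed level of 4 cardiovascular markers, of which *ACTC1* and *DES* were the most abundant on day 38, was 9.62 and 16.8 CPM on day 31 and 135 and 116 on day 38. That of 7 goblet and club cell markers was 7.57 and 13.8 CPM on day 31 and 55.2 and 40.6 on day 38, when *MUC5AC* was the most abundant of them, at 29.7 and 21.9 CPM. That of 5 distal lung markers went the other way, from 608 and 624 CPM to 130 and 129. Of these, *SFTPB* went from 499 and 502 CPM to 6.59 and 8.62, while *ABCA3* was at 101 and 112 and then 122 and 118 (log2 fold change 0.17, edgeR adjusted p = 0.642). The small nuclear RNA *RN7SK* took 2.92 and 3.86% of the counts on day 31 and 8.17 and 6.76% on day 38. The other lists had summed levels of at most 51.4 CPM for 3 airway basal, 37.6 for 3 neural, 27.1 for 2 neuroendocrine and 5.47 for 2 endothelial markers in any library. The part of any of these in the rise of the ER genes was not tested. The summed level of 14 thyroid genes was 2073 and 2065 CPM on day 31 and 8668 and 7844 on day 38. *TG* was the most abundant of them on day 38, and without it the sums were 1873 and 1853 and then 3121 and 2969. The log2 fold changes of *NKX2-1* (−0.10), *PAX8* (0.03), *IYD* (−0.13) and *HHEX* (−0.33) passed no test.

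Among the chaperones of the ER lumen, *HSPA5*, which lies on chromosome 9 (125234853 to 125241382, GRCh38), was at 296 and 304 CPM in the day 16 libraries, 291 and 257 on day 23, 315 and 290 on day 31, 870 and 799 on day 38 and 943 and 1004 on day 45. The 4 late libraries were all above the 6 early ones. It rose by 1.46 on the log2 scale from day 31 to day 38 (SE 0.12, edgeR adjusted p = 1.2e-11), and the change from day 38 to day 45 was 0.22 (SE 0.12, edgeR adjusted p = 0.26). Without each library in turn, the rise on day 38 was between 1.40 and 1.52. *HSP90B1*, which encodes the ER Hsp90 GRP94 and lies on chromosome 12 from 103930107 to 103953931, was at 613 and 833 CPM on day 16, 583 and 573 on day 23, 660 and 679 on day 31, 1344 and 1335 on day 38 and 1179 and 1353 on day 45. Here too the late libraries did not overlap the early ones, and the rise on day 38 was 1.00 (SE 0.12, edgeR adjusted p = 1.1e-07). *HYOU1*, a large Hsp70-like nucleotide exchange factor, ranged from 48.6 to 112 CPM over the 10 libraries, and its log2 fold change on day 38 was 0.43 (edgeR adjusted p = 0.148).

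**Figure D2:**
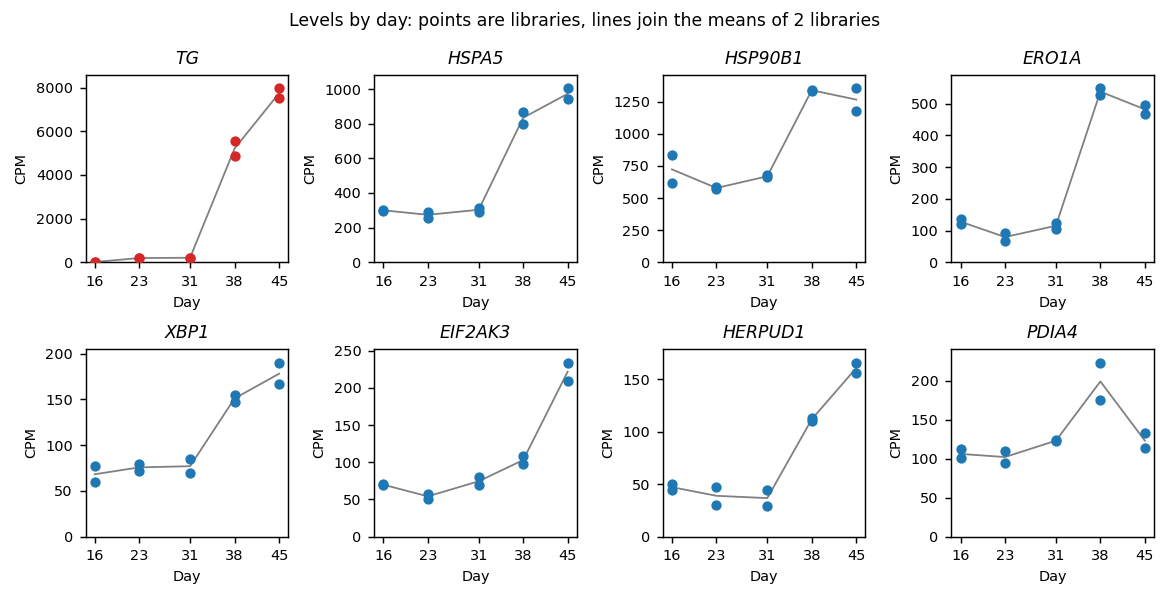
CPM of TG and of 7 ER genes against the day, each panel from 0 on its own scale. Points are libraries and lines join the means of the 2 libraries of a day. TG, HSPA5, HSP90B1, ERO1A, XBP1 and HERPUD1 step up between days 31 and 38, EIF2AK3 is highest on day 45, and PDIA4 is highest on day 38.

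The co-chaperones are J-domain proteins that direct BiP to its clients, and *SDF2L1* forms a complex with 1 of them, *DNAJB11*. *DNAJB9* was at 51.5 and 64.9 CPM on day 16, 50.9 and 34.6 on day 23, 33.2 and 25.9 on day 31, 92.9 and 94.0 on day 38 and 144 and 151 on day 45. It was lowest on day 31, rose by 1.66 on the log2 scale to day 38 (SE 0.20, edgeR adjusted p = 6.8e-08), and rose again by 0.66 to day 45 (SE 0.19, edgeR adjusted p = 0.0171). *DNAJC3*, also known as p58IPK, an inhibitor of PERK, was at 69.7 and 63.3 CPM on day 16, 84.9 and 73.4 on day 23, 78.5 and 88.8 on day 31, 144 and 133 on day 38 and 188 and 195 on day 45. Its 2 steps were 0.73 on day 38 (SE 0.15, edgeR adjusted p = 0.00068) and 0.47 on day 45 (SE 0.15, edgeR adjusted p = 0.036). *DNAJB11* was at 34.4 and 38.8, 40.2 and 38, 43.5 and 39.0 and 45.9 and 44 CPM up to day 38 and 79.0 and 67.7 on day 45. Its log2 fold change was 0.12 on day 38 (edgeR adjusted p = 0.777) and 0.70 on day 45 against day 38 (SE 0.21, edgeR adjusted p = 0.0211). The calls of these 3 genes on day 45 against day 38 mostly did not hold with 1 library left on a day, although the fold changes moved little. Those of *DNAJB9* and *DNAJC3* ended without either day 38 library and without either day 45 library, at log2 fold changes of 0.62 to 0.69 and 0.41 to 0.53. That of *DNAJB11* ended without day 38 replicate 1 (0.74), day 38 replicate 2 (0.67) or day 45 replicate 1 (0.59). *SDF2L1* lay between 1.97 and 8.86 CPM and passed no test.

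Of the 2 small secreted or luminal stress factors, *MANF* was at 15.3 and 13.1 CPM on day 16, 20.9 and 16.1 on day 23, 12 and 12.8 on day 31, 34.9 and 28.1 on day 38 and 26.6 and 23 on day 45. It rose by 1.35 on the log2 scale on day 38 (SE 0.31, edgeR adjusted p = 0.00189), a call that ended without day 38 replicate 1 (1.18, edgeR adjusted p = 0.0665). *CRELD2* lay between 5.30 and 14.5 CPM and passed no test.

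All 6 genes of disulfide formation rose on day 38. *ERO1A*, on chromosome 14 from 52639915 to 52695900, encodes an oxidase that recharges the protein disulfide isomerases. It was at 136 and 120 CPM on day 16, 66.9 and 92.0 on day 23, 123 and 106 on day 31, 548 and 527 on day 38 and 466 and 497 on day 45. Its level thus fell on day 23 and was above all 6 early libraries in each of the 4 late ones. The rise on day 38 was 2.23 on the log2 scale (SE 0.14, edgeR adjusted p = 4.3e-14), between 2.12 and 2.34 without each library in turn. *ERO1B*, the second oxidase, was at 24.1 and 26.2 CPM on day 16, 19.7 and 25.8 on day 23, 33.3 and 24.6 on day 31, 67.6 and 75.8 on day 38 and 77.2 and 88.9 on day 45, a rise of 1.31 on day 38 (SE 0.22, edgeR adjusted p = 4e-05). *P4HB*, which encodes protein disulfide isomerase and also the β subunit of collagen prolyl 4-hydroxylase, was at 164 and 141 CPM on day 16, 189 and 159 on day 23, 171 and 197 on day 31, 367 and 311 on day 38 and 328 and 290 on day 45. It rose by 0.89 on day 38 (SE 0.14, edgeR adjusted p = 1.2e-05).

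*PDIA3*, *PDIA4* and *PDIA6*, which encode further isomerases, rose by 0.60, 0.70 and 0.77 on the log2 scale on day 38. *PDIA4* was the only member that fell from day 38 to day 45 (−0.69, SE 0.15, edgeR adjusted p = 0.00159). It was at 124 and 122 CPM on day 31, 223 and 175 on day 38 and 133 and 114 on day 45. Both of its calls ended without day 38 replicate 1, at 0.51 for the rise (edgeR adjusted p = 0.101) and −0.51 for the fall (edgeR adjusted p = 0.126), and the fall also ended without day 45 replicate 2 (−0.59, edgeR adjusted p = 0.0513). *PDIA3* has a processed pseudogene, *PDIA3P1*, counted at 185 to 316 reads per library, and 25.2% of the exon bases of *PDIA6* overlap the opposite-strand gene *ATP6V1C2*. Reads may be shared between *PDIA3* and *PDIA3P1* because of similar sequence. Since the strand setting of the counting is not given in the sources used here, reads may also be shared between *PDIA6* and *ATP6V1C2*.

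Calnexin and calreticulin hold glycoproteins during folding, and UGGT1 returns misfolded ones to them. *CALR* was at 230 and 240 CPM on day 16, 282 and 285 on day 23, 282 and 287 on day 31, 547 and 480 on day 38 and 514 and 505 on day 45. It rose by 0.85 on the log2 scale on day 38 (SE 0.12, edgeR adjusted p = 1.7e-06). *CANX* was at 363 and 398 CPM on day 16, 603 and 572 on day 23, 652 and 622 on day 31, 992 and 969 on day 38 and 861 and 992 on day 45. Unlike *HSPA5*, it rose in both steps, by 0.63 on day 23 (SE 0.11, edgeR adjusted p = 0.000174) and by 0.62 on day 38 (SE 0.11, edgeR adjusted p = 0.000109). *UGGT1* was highest on day 23, at 123 and 162 CPM, and its log2 fold change on day 38 was −0.15 (edgeR adjusted p = 0.639).

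The 3 sensors did not pass the same tests, and the difference between them was not tested. *ATF6* was at 103 and 94.4 CPM on day 16, 107 and 110 on day 23, 120 and 98.0 on day 31, 130 and 126 on day 38 and 101 and 113 on day 45, and it passed no test (edgeR, any day, adjusted p = 0.322). *ERN1*, on chromosome 17 from 64039080 to 64130819, was at 24.7 and 17.2 CPM on day 16, 24.3 and 33.3 on day 23, 32.3 and 31.8 on day 31, 48.7 and 47.7 on day 38 and 64.9 and 66.4 on day 45. No step between neighbouring days passed the test for it, and the change on day 38 was 0.59 (SE 0.24, edgeR adjusted p = 0.0938), but day 45 was above day 16 by 1.65 (SE 0.24, edgeR adjusted p = 2e-06). *EIF2AK3*, on chromosome 2 from 88556741 to 88691518, was at 69.2 and 70.4 CPM on day 16, 57.4 and 50.8 on day 23, 79.8 and 69.0 on day 31, 108 and 97.8 on day 38 and 209 and 234 on day 45. Its largest step was the last, 1.10 from day 38 to day 45 (SE 0.16, edgeR adjusted p = 2.8e-06), between 1.02 and 1.19 without each library in turn. Its call on day 38 (0.47, SE 0.16, edgeR adjusted p = 0.0362) ended without any of the 4 libraries of days 31 and 38, at 0.36 to 0.58, and at 0.25 with library size alone.

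Of the 3 transcription factors, *XBP1*, on chromosome 22 from 28794555 to 28800597, was at 59.6 and 76.6 CPM on day 16, 79.2 and 72.0 on day 23, 69.4 and 84.4 on day 31, 155 and 147 on day 38 and 190 and 167 on day 45. The 4 late libraries were above all early ones, with a rise of 0.97 on the log2 scale on day 38 (SE 0.16, edgeR adjusted p = 2.6e-05). *CREB3L1*, a membrane-bound factor related to ATF6, was at 24.1 and 12.1 CPM on day 16, 26.4 and 26.9 on day 23, 34.7 and 26.8 on day 31, 30.0 and 24.6 on day 38 and 39.9 and 35.2 on day 45. It was called only for day 45 against day 16 (1.05, SE 0.29, edgeR adjusted p = 0.00647), and not without day 16 replicate 2 (0.64) or day 45 replicate 1 (0.96). *CREB3L2*, of the same family, rose, fell and rose again, at 180 and 187 CPM on day 16, 259 and 235 on day 23, 162 and 155 on day 31 and 238 and 214 on day 38, with 150 and 201 on day 45. Its rise on day 38 (0.51, edgeR adjusted p = 0.0104) ended without day 31 replicate 1 (0.54), day 31 replicate 2 (0.47) or day 38 replicate 1 (0.43), and with library size alone (0.29, edgeR adjusted p = 0.169).

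ERAD removes misfolded proteins from the ER to the proteasome. The list held 12 of its genes. *HERPUD1*, on chromosome 16 from 56932142 to 56944864, encodes a membrane scaffold of the degradation complex. It was at 44.5 and 49.9 CPM on day 16, 47.7 and 30.2 on day 23, 28.9 and 44.6 on day 31, 110 and 113 on day 38 and 156 and 166 on day 45, with no overlap between late and early libraries. The rise on day 38 was 1.61 on the log2 scale (SE 0.20, edgeR adjusted p = 2.2e-07). *SYVN1*, the ubiquitin ligase HRD1, took its step earlier, at 24.9 and 18.2 CPM on day 16, 39.5 and 39.4 on day 23, 34.5 and 51.5 on day 31, 46.3 and 41.1 on day 38 and 60.7 and 52.4 on day 45. Its change was 0.87 on day 23 (SE 0.24, edgeR adjusted p = 0.0146) and 0.03 on day 38 (edgeR adjusted p = 0.975), and the call on day 23 ended without day 16 replicate 2 (0.67), day 23 replicate 1 (0.87) or day 23 replicate 2 (0.87). *SEL1L*, the partner of HRD1, rose by 0.56 on day 38 (edgeR adjusted p = 0.00303), but not without day 38 replicate 2 (0.49, edgeR adjusted p = 0.0734) or with library size alone (0.34, edgeR adjusted p = 0.0835).

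*EDEM1*, which trims mannose from glycoproteins bound for degradation, was the only member called lower on day 38. It was at 113 and 118 CPM on day 31 and at 70.4 and 78.0 on day 38, a change of −0.64 (SE 0.16, edgeR adjusted p = 0.00512) that no longer passed without day 38 replicate 1 (−0.57, edgeR adjusted p = 0.116). *OS9*, a lectin of the same pathway, rose on day 23 (0.72), but not without day 16 replicate 2 (0.52) or day 23 replicate 1 (0.60), and 15.9% of its exon bases overlap *AGAP2-AS1* on the same strand. *DERL1*, *SELENOS* and *VCP* passed no test, and *VCP*, the ATPase that pulls substrates out of the membrane, lay between 178 and 270 CPM in all libraries. *DERL3* had 1 to 16 counts and shares 77.0% of its exon bases with *SMARCB1* on the opposite strand. *EDEM2* had 0 to 15 counts, and a separately counted readthrough, *MMP24-AS1-EDEM2*, had 15 to 56, so the counts listed under both names are uncertain.

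Among the genes of entry and exit, *SEC24D*, a cargo adaptor of the COPII coat, was at 103 and 102 CPM on day 16, 98.0 and 108 on day 23, 123 and 101 on day 31, 250 and 233 on day 38 and 221 and 231 on day 45. It rose by 1.11 on the log2 scale on day 38 (SE 0.14, edgeR adjusted p = 2.9e-07). *SEC31A*, of the outer coat, rose by 0.59 and *SEC61A1*, the pore of the translocon, by 0.61, and the call of *SEC61A1* ended without day 31 replicate 1 (0.57) or day 38 replicate 1 (0.48), and with library size alone (0.39, edgeR adjusted p = 0.0547). *SEC61B*, a small translocon subunit, was at 10.1 and 6.40 CPM on day 16, 12.3 and 7.77 on day 23, 10.4 and 8.03 on day 31, 17.3 and 14.2 on day 38 and 25.8 and 23 on day 45. It was called for day 45 against day 16 (1.56, SE 0.39, edgeR adjusted p = 0.00269).

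**Figure D3:**
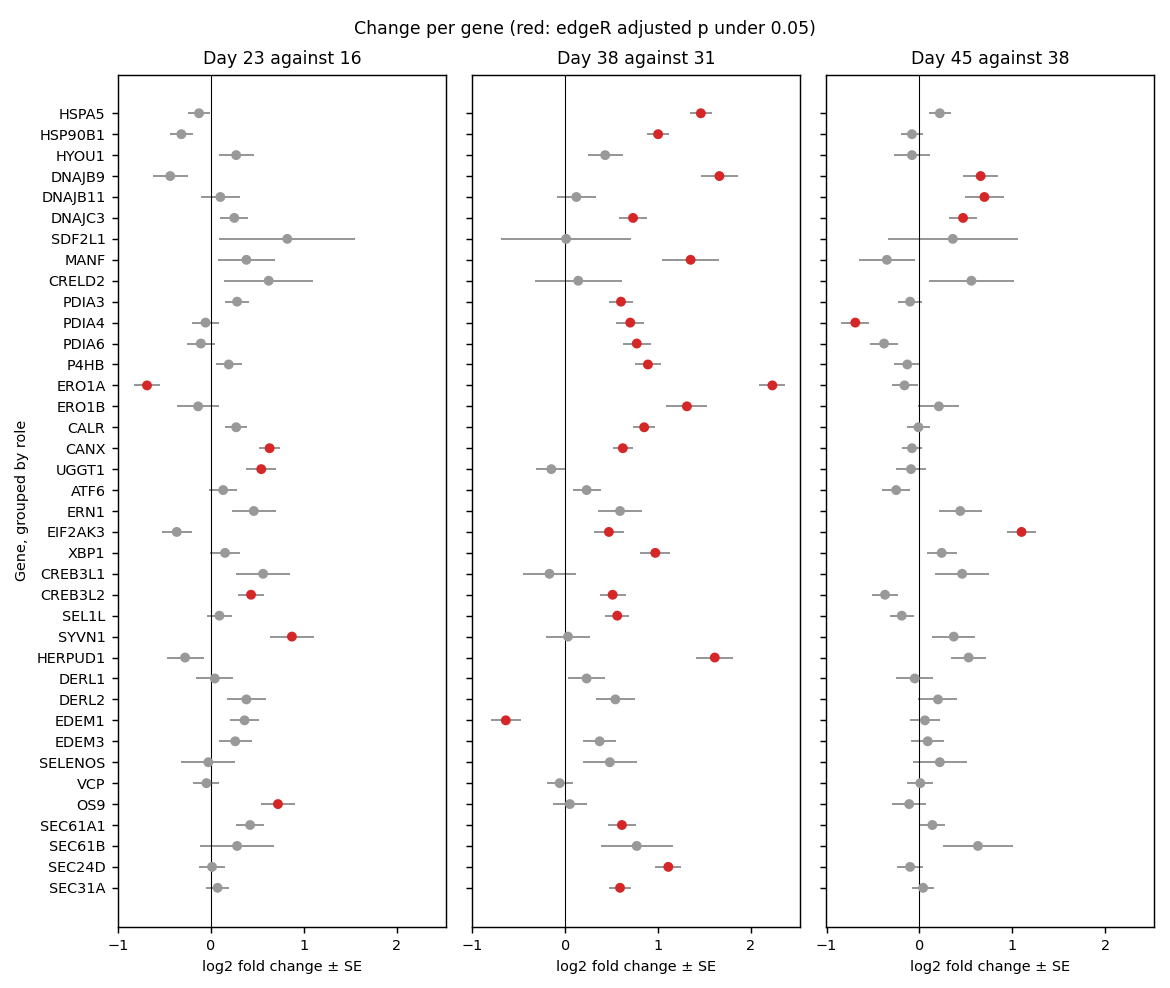
Log2 fold change of 38 genes, with its standard error as a bar, in 3 comparisons between neighbouring days on a common axis. Red points passed edgeR at an adjusted p under 0.05. DERL3 and EDEM2 are left out because their counts were near 0. At day 38 against 31, 21 red points lie to the right of 0 and 1 to the left, while on day 23 against 16 and day 45 against 38 most points are grey.

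The week from day 16 to day 23, in which *TG* rose by 4.10 on the log2 scale (SE 0.13, edgeR adjusted p = 2.7e-22), called 5 of the 40 genes higher and 1 lower, against 5.6% and 5.33% of all genes tested. Those that rose were *SYVN1*, *OS9*, *CANX*, *UGGT1* and *CREB3L2*, and *ERO1A* fell by 0.69. The median of the 40 genes was 0.22, against −0.02 for all genes. *HSPA5* changed by −0.13 (edgeR adjusted p = 0.551) and *HSP90B1* by −0.32 (edgeR adjusted p = 0.0835) in this week. Without day 23 replicate 1 or day 23 replicate 2 the number called was 3, and *CANX* was the only one of the 6 that kept its call without each library in turn. The calls of *ERO1A* (−0.47 without day 23 replicate 1) and *UGGT1* (0.41 without day 16 replicate 2 and 0.33 without day 23 replicate 2) ended, and so did that of *CREB3L2*, which was 0.35 without day 23 replicate 1 and ended without any of 8 libraries. Markers moved in this week as well. *SFTPB* of the distal lung list went from 3.55 and 1.48 CPM to 165 and 149, the summed fibroblast level from 843 and 1033 to 1475 and 1483, and *RN7SK* from 6.82 and 7.11% of the counts to 4.4 and 4.42%. *DCN*, *COL3A1* and *DES* rose, as did *MUC5AC*, from 0 in both libraries to 0.333 and 0.8 CPM, and *CALCA*, while *ACTC1*, *COL1A2* and *TP63* fell. Of these, *ACTC1* (−1.42), *CALCA* (2.74), *COL1A2* (−0.29) and *MUC5AC* (4.58) lost their calls without day 23 replicate 2. *COL1A2* (−0.36) and *MUC5AC* (5.32) also lost theirs without day 16 replicate 2, and *TP63* without day 16 replicate 1 (−1.75) or day 23 replicate 1 (−1.61). That of *MUC5AC* ended too without day 16 replicate 1 (5.34), day 31 replicate 1 (5.29), day 38 replicate 1 (5.31) or day 38 replicate 2 (5.32). The part of the markers in the changes of the 40 genes was not tested.

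From day 23 to day 31, *ERO1A* rose (0.53, edgeR adjusted p = 0.0375) and *CREB3L2* fell (−0.64, edgeR adjusted p = 0.00741), 1 of 40 in each direction against 1.58% higher and 0.666% lower among all genes tested. No call was left without day 23 replicate 1 (*ERO1A* 0.32, *CREB3L2* −0.56), day 31 replicate 1 (0.42 and −0.67) or day 31 replicate 2 (0.62 and −0.61), and that of *ERO1A* ended also without day 38 replicate 2 (0.53). The median of the 40 genes was 0.01, against 0.00 for all genes. Among the markers, *SFTPB* went from 165 and 149 CPM to 499 and 502 (1.68, SE 0.16, edgeR adjusted p = 1.2e-08), *ABCA3* rose by 1.19 (SE 0.19, edgeR adjusted p = 0.000179) and *KRT5* rose, and the summed distal lung level went from 211 and 204 to 608 and 624 CPM. Their part was not tested.

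From day 38 to day 45, 4 of the 40 genes rose and 1 fell, against 4.85% and 6.35% of all genes tested, and the median was 0.05 against −0.02. The 4 were *EIF2AK3*, *DNAJB11*, *DNAJB9* and *DNAJC3*, and *PDIA4* fell. The number called was 1 without day 38 replicate 1, 2 without day 38 replicate 2 and 2 without day 45 replicate 1, with *EIF2AK3* among the calls in each case. *TG* rose by 0.57 (SE 0.10, edgeR adjusted p = 0.000121). Cell type markers moved in the same week. Of 14 thyroid genes 2 rose (*TG* and *DUOX2*, the latter not called with any 1 of the 4 libraries left out, at 0.47 to 0.71) and 5 fell (*IYD*, *NKX2-1*, *HHEX*, *FOXE1* and *SLC26A7*), and *NKX2-1*, the gene whose reporter the cells were sorted on, went from 154 and 133 CPM to 58.1 and 66.7 (−1.20, SE 0.15, edgeR adjusted p = 6.3e-07). For *NKX2-1*, 32.6% of the exon bases overlap *SFTA3* on the same strand and 12.7% overlap *NKX2-1-AS1* on the opposite strand, so reads may be shared. The fibroblast markers *DCN*, from 52.1 and 49.5 CPM to 145 and 115, and *PDGFRA* rose. The other 3, all collagens, had log2 fold changes below 0 and were not called. The summed fibroblast level was 4177 and 4414 CPM on day 38 and 4365 and 3482 on day 45. *KRT5* of the airway basal list, *MUC5B* and *SCGB3A2* of the goblet and club list, and *SFTPB* of the distal lung list also rose, while *MUC5AC* fell. Of these, *KRT5* lost its call without any 1 of the 4 libraries (1.36 to 1.75), *PDGFRA* without day 38 replicate 1 (1.17) or day 38 replicate 2 (1.33), *SCGB3A2* without day 38 replicate 1 (2.97), day 38 replicate 2 (2.41) or day 45 replicate 1 (1.61), *MUC5B* without day 45 replicate 1 (1.65) and *SLC26A7* without day 38 replicate 1 (−0.60), day 38 replicate 2 (−0.64) or day 45 replicate 1 (−0.39). By DESeq2 the calls of *DCN* (1.40, adjusted p = 0.0741), *MUC5B* (2.30, adjusted p = 0.0936) and *SLC26A7* (−0.58, adjusted p = 0.108) also ended. The part of all these markers in the changes of the 40 genes was not tested. The comparisons of day 38 with day 31 and of day 45 with day 38 share the day 38 libraries, so an error in these would move both in opposite directions.

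Over the whole course, day 45 against day 16, 25 of the 40 genes were higher and 0 lower, against 12.9% higher and 11.7% lower among all genes tested. DESeq2 also called 0 lower, while library size alone called 1 lower and 1 gene, *VCP*, was lower at an unadjusted edgeR p under 0.05. The median was 0.98 against 0.00, and 36 of the 40 values were above 0. The largest were *ERO1A* at 1.91 (SE 0.14), *HERPUD1* at 1.77 (SE 0.20), *ERO1B* at 1.72 (SE 0.23), *HSPA5* at 1.70 (SE 0.12), *EIF2AK3* at 1.67 (SE 0.16) and *ERN1* at 1.65 (SE 0.24). *TG* was higher by 9.43. The markers differed between these days too. All 5 fibroblast markers were higher, with a summed level of 843 and 1033 CPM on day 16 and 4365 and 3482 on day 45. So were 4 of 7 goblet and club, 2 of 3 airway basal (*KRT5* and *KRT14*) and 2 of 4 cardiovascular markers (*DES* and *TNNT2*). Also higher were 2 of the 4 distal lung markers tested, 2 of 3 neural (*STMN2* and *TUBB3*) and 1 of 2 neuroendocrine markers (*CALCA*). Of the 14 thyroid genes 9 were higher and 4 lower, the latter *FOXE1* (−1.86), *NKX2-1* (−0.48), *IYD* (−0.45) and *PAX8* (−0.33). Of the 4, only *FOXE1* kept its call under every alternative run. Without day 16 replicate 1 the values were −0.44 for *NKX2-1*, −0.24 for *IYD* and −0.16 for *PAX8*, without day 45 replicate 1 they were −0.38, −0.35 and −0.38, and none of these 6 passed. The calls of *TNNT2* and *KRT14* ended without day 45 replicate 1 (2.16 and 7.47), and that of *TNNT2* without day 16 replicate 2 (1.61). That of *MUC5AC* ended without day 45 replicate 2 (4.94), and that of *STMN2* without day 16 replicate 1 (3.64) or day 45 replicate 1 (2.15). Among the higher thyroid genes, the call of *HHEX* ended without day 16 replicate 1 (0.21) or day 45 replicate 2 (0.38), and with library size alone (0.35). That of *SLC5A5* ended without day 16 replicate 2 (2.39) or day 45 replicate 2 (2.52). The part of all these markers in the whole-course change was not tested. Of the smaller changes, those of *HYOU1*, *DERL2*, *EDEM3*, *SEL1L* and *CREB3L1* lost their calls without 1 library or another. *HYOU1* was at 0.28 without day 16 replicate 2 and 0.38 without day 45 replicate 1. *DERL2* was at 0.58 without day 16 replicate 1 and 0.43 without day 45 replicate 1. *EDEM3* was at 0.49 without day 16 replicate 2, 0.57 without day 45 replicate 1 and 0.59 without day 45 replicate 2, and *SEL1L* was at 0.35 without day 45 replicate 2. *CREB3L1* was at 0.64 without day 16 replicate 2 and 0.96 without day 45 replicate 1.

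Set beside the promoter matches, 7 of the 10 members with ERSE or ERSE-II rose on day 38, all 10 values were above 0, and their median log2 fold change was 0.91, where 8.8% of all genes tested rose and 6.23% fell. Of the 26 members with a promoter and neither motif, 12 rose and 1 fell, with a median of 0.55. The 3 motif members that did not pass were *HYOU1*, *SDF2L1* and *CRELD2*, and the last 2 were below 15 CPM in every library. Of the other 27 genes with either motif, 17 were tested, 2 rose (*SERP1* and *GYS1*) and 2 fell, with a median of 0.08. *SERP1*, which encodes a small ER membrane protein, was chosen after its values were seen and rose by 0.65 (SE 0.14, edgeR adjusted p = 0.00102).

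Another 6 lists of the secretory pathway, none of whose genes is among the 40, were set beside them. On day 38, 8.8% of all genes tested rose and 6.23% fell. Of 23 genes of ER entry (signal recognition particle, translocon partners and signal peptidase), 6 rose and 1 fell, among them *SSR4* (1.14), *SEC61G* (1.05) and *SRP54* (0.76), with *TRAM2* at −0.59. Of 12 oligosaccharyltransferase genes, which attach N-glycans, 5 rose and 1 fell, with *OST4* (1.23), *STT3B* (0.74) and *RPN2* (0.72) higher and *TUSC3* at −0.43. *TUSC3*, the subunit that was lower, was at 183 and 232 CPM on day 16 and 78.7 and 68.3 on day 45, a change of −1.50 over the course (edgeR adjusted p = 6.7e-10). Of 25 genes of ER to Golgi transport, 10 rose and 1 fell, with *MIA2* (1.34), *SEC23B* (1.05) and *KDELR2* (1.03) higher and *MIA3* at −0.40. *MIA2* and *MIA3* form a receptor for very large cargo, and *KDELR2* returns chaperones to the ER. The calls of *SEC61G*, *OST4*, *TRAM2*, *TUSC3* and *MIA3* ended without 1 library or another, at 0.81 for *SEC61G* without day 31 replicate 2 and 0.94 without day 38 replicate 1, and at 0.92 and 0.90 for *OST4* without day 31 replicate 1 and day 38 replicate 1. *TUSC3* and *MIA3* lost theirs without any library of days 23, 31 and 38, at −0.45 to −0.41 and −0.43 to −0.38, and *TRAM2* without day 31 replicate 1 (−0.52), day 38 replicate 1 (−0.56) or day 38 replicate 2 (−0.61).

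For other folding factors and other ERAD genes the background was again 8.8% higher and 6.23% lower on day 38. Of 36 other folding genes tested, 10 rose and 1 fell on day 38, and their median was 0.13. The 3 largest rises were *FKBP14* (1.38), *FKBP9* (1.32) and *GPX7* (1.16), the first of which encodes a prolyl isomerase that acts on collagen. The call of *GPX7*, a peroxidase, ended without day 31 replicate 1 (0.89) or day 38 replicate 1 (0.95). *TXNDC11*, which binds the dual oxidases, fell by 0.64, and not without day 31 replicate 1 (−0.63), day 31 replicate 2 (−0.65) or day 38 replicate 2 (−0.47). Of the same 36 genes, 0 rose and 6 fell from day 38 to day 45 by edgeR, against 4.85% higher and 6.35% lower among all genes tested, DESeq2 gave the same numbers, and 2 were higher at an unadjusted p under 0.05. Of 18 other ERAD genes, 1 rose and 2 fell on day 38, with a median of 0.02.

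In the list of other UPR signalling genes, 20 of 21 were tested, 2 rose and 2 fell on day 38, and 5 rose and 0 fell from day 38 to day 45 by edgeR and by DESeq2, with 0 lower also at an unadjusted p under 0.05. The shares over all genes tested were 8.8% higher and 6.23% lower on day 38, which the 2 and 2 of 20 are near, and 4.85% higher and 6.35% lower on day 45 against 38. The 5 that rose on day 45 were *PPP1R15B*, *PPP1R15A*, *DDIT3*, *ATF4* and *TMBIM6*, and they were picked after their values were seen. Other genes of the list that ATF4 is known to induce were not called in that week, *CHAC1* at 16.1 and 8.85 and then 6.1 and 9.94 CPM (−0.63, edgeR adjusted p = 0.582) and *SESN2* at 19.9 and 19.1 and then 22.5 and 18.5 CPM (0.07, edgeR adjusted p = 0.951). *ATF4*, the transcription factor translated when PERK is active, was at 151 and 123 CPM on day 38 and 257 and 262 on day 45, a rise of 0.92 (SE 0.14, edgeR adjusted p = 1.6e-05), after 0.28 on day 38 (edgeR adjusted p = 0.216). *DDIT3*, which encodes CHOP, was at 29.2 and 24.8 and then 61.8 and 61.6 CPM (1.19, SE 0.27, edgeR adjusted p = 0.00182), and 31.6% of its exon bases overlap *MARS1* on the opposite strand. *PPP1R15A* and *PPP1R15B*, whose products reverse the PERK block on translation, rose by 1.31 and 1.38. The call of *DDIT3* ended without day 38 replicate 2 (edgeR adjusted p = 0.0686), and that of *TMBIM6* without day 38 replicate 2 (0.30), day 45 replicate 1 (0.37) or day 45 replicate 2 (0.45). *TRIB3*, a target of CHOP, had risen already on day 38, from 3.38 and 1.05 CPM to 28.4 and 27.5 (3.63, SE 0.56, edgeR adjusted p = 9.8e-06), and was not called from day 38 to day 45 (0.28, edgeR adjusted p = 0.801). *WFS1*, an ER membrane protein that restrains ATF6, went from 85.6 and 92.2 CPM on day 31 to 50.9 and 47.9 on day 38 (−0.85, SE 0.22, edgeR adjusted p = 0.00529), and its call ended without day 31 replicate 2 (−0.80) or day 38 replicate 2 (−0.80).

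Over the whole course, day 45 against day 16, 12.9% of all genes tested were higher and 11.7% lower. ER to Golgi transport had 12 of 25 higher and 0 lower, with *MIA2* (1.92), *SAR1B* (1.12) and *SEC24A* (1.07) in front, and *SEC24A*, another COPII adaptor, was at 188 and 182 CPM on day 16, 228 and 218 on day 38 and 384 and 392 on day 45. ER entry had 10 of 23 higher and 1 lower, led by the signal peptidase subunit *SEC11C* (2.32, SE 0.39, edgeR adjusted p = 1.7e-05). Oligosaccharyltransferase had 4 of 12 higher and 1 lower, other UPR signalling 7 of 20 higher and 1 lower, other ERAD 3 of 18 higher and 0 lower, and other folding 5 of 36 higher and 4 lower, the last near the shares over all genes. *NUPR1*, a stress-induced gene of the UPR signalling list and the first by size of its change, had no counts on day 16 and was at 2.38 and 1.05 CPM on day 38 and 13.4 and 7.75 on day 45. DESeq2 also called 0 genes of ER to Golgi transport and other ERAD lower, and 1 gene of each was lower at an unadjusted edgeR p under 0.05. The difference between the lists and the 40 genes (25 of 40 higher) was not tested.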

How the data were processed

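Reads were trimmed (Trimmomatic), mapped to the human genome (HISAT2) and counted (HTSeq, annotation of GRCh38.p13) by the authors, who deposited raw counts per library with no normalization. Tool versions and the strand setting of the counting are not given in the sources used here. The study names 2 biological replicates per day. Days and replicate numbers were read from the sample titles. From the deposited counts, CPM, TMM factors and tests were computed with R 4.3.3 and edgeR 4.0.16 (glmQLFit and glmQLFTest, 1 mean per day over all 10 libraries, 5 residual degrees of freedom, a minimum of 5 counts in 2 libraries, Benjamini-Hochberg over 21014 genes, threshold 0.05). Replicates of a day differed by more than sampling noise (chi-square per degree of freedom 8.84 to 14.5). Floors of 3 counts cover counting error only, since PCR copies were not separated. Standard errors were derived from the log2 fold change and its F statistic and are approximate. The 40 genes, the other lists, the markers and the tests were chosen with earlier results of these data known. Values in every library are given for members called with an absolute log2 fold change of at least 1 in any comparison and for *HSPA5*, *HSP90B1*, *XBP1*, *ATF6*, *ERN1* and *EIF2AK3*, and from other lists at most 3 genes in each direction are named, by the size of their change at day 38 against 31 or day 45 against 16, except *SERP1*, *CHAC1*, *SESN2*, the cell type markers and the signalling genes that rose at day 45 against 38, which were chosen after their values were seen. Positions and exon lengths came from GENCODE 44 on GRCh38, and promoters from RefSeq on GRCh38.p14. The procedure was tested on simulated counts. Alternatives were DESeq2 1.42.0, library size alone, upper-quartile factors, *TG* and *RN7SK* left out, 2 other low-count filters, only the 4 libraries compared, a replicate block and each library left out. Summed CPM have no test. No protein sequence was used here.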

Additional observations from a re-analysis of the deposited data

How the results depend on the processing

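The number of genes called at day 38 against 31 (22), at day 45 against 16 (25) and over all days (31) stayed within 1.5 times its value under every alternative run, at 16 to 24, 21 to 26 and 27 to 32. The smaller counts did not. With only the 4 libraries compared, 3 genes were called at day 23 against 16 and 1 at day 31 against 23, and filterByExpr also left 1 at day 31 against 23. Without each library in turn, the counts were 3 to 8 at day 23 against 16, 0 to 2 at day 31 against 23 and 1 to 7 at day 45 against 38. The median log2 fold change of the 40 genes moved to 0.37 at day 38 against 31 and 0.89 at day 45 against 16 with library size alone, and to 0.11 at day 45 against 38 with upper-quartile factors. Without each library in turn it was 0.11 to 0.26 at day 23 against 16, −0.03 to 0.07 at day 31 against 23, 0.53 to 0.62 at day 38 against 31 and 0.90 to 0.98 at day 45 against 16. The log2 ratio of the summed CPM was 0.12, 0.03, 0.78 and 0.01 over the 4 weeks and 0.94 over the whole course. With library size alone it was 0.16 at day 23, 0.05 at day 31, 0.56 at day 38 and 0.84 over the course. With library size alone and *TG* and *RN7SK* also left out of the totals, it was 0.63 at day 38 and 0.84 over the course. As a difference of the median log2 CPM it was 0.19, 0.08, 0.36 and 0.13 over the 4 weeks and 0.76 over the course. The cause of these shifts was not tested.

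Of 198 called results for the 40 genes, *TG*, the cell type markers and the named genes of other lists, 128 kept their side of the threshold under every alternative, 0 reversed, 68 lost their call without 1 library and 31 in another setting. Samples of the same number did not deviate together (correlations of −0.032 to 0.02), so the numbers were not used to pair them. With the replicate block, 8, 2, 22, 6, 25 and 32 genes were called at day 23 against 16, 31 against 23, 38 against 31, 45 against 38, 45 against 16 and over all days. With 2 libraries a day, members below about 15 CPM, such as *SDF2L1* and *CRELD2*, had standard errors of 0.46 to 0.73, so changes of the size seen in *HSPA5* could be missed in them.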
